A study of Mus musculus with 12 samples.

Results

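The genes of cholesterol and fatty acid synthesis were followed in microglia sorted from mouse midbrain. The set was defined from a list of 33 named genes, chosen for their place in the pathway and not by their values, out of 21135 genes in the deposited table. Of the 33, 32 were found by symbol and 1, Sc4mol, through its RefSeq synonym Msmo1. The series compared 4 groups of 3 labelled samples: KO MPTP (Ppargc1a FF CreER, MPTP), KO PBS (Ppargc1a FF CreER, PBS), WT MPTP (Ppargc1a FF, MPTP) and WT PBS (Ppargc1a FF, PBS). Ppargc1a encodes a coactivator of mitochondrial and oxidative genes, FF marks its conditional allele, carried by all groups, and MPTP kills dopaminergic neurons. All samples were taken 6 weeks after tamoxifen, which the WT animals received too. The sources used here name neither the promoter that drives CreER nor the age of the animals. They do not say that replicates are different animals either, and a p-value here reflects the scatter among profiles, possibly a technical one.

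Cholesterol is built from acetyl-CoA in a long chain of enzymes. The mevalonate arm ends in farnesyl pyrophosphate, and the sterol arm turns it into squalene, lanosterol and cholesterol. When membrane sterol is low, SCAP escorts SREBP proteins from the endoplasmic reticulum to the Golgi, where they are cut to free a transcription factor that acts on most genes of the chain, and INSIG proteins hold SCAP back when sterol is high. Fatty acids are made from citrate by ATP-citrate lyase, acetyl-CoA carboxylase and fatty acid synthase, and are then elongated and desaturated. The sterol genes rely mainly on SREBP2 and the fatty acid genes on SREBP1.

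The promoters of 6 members are shown because the 4 mevalonate genes and Insig1 shared an order over the profiles, described below, that Fasn did not. Each run is the 250 bases before the gene start, in RefSeq on build GRCm38.p6, for members with 1 promoter in the RefSeq table. Capitals mark CCAAT, the box bound by NF-Y, a factor that acts with SREBP, or its reverse complement, and the 9-letter sterol regulatory element TCACCCCAC. In Fasn a box on one strand overlaps one on the other.

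Hmgcs1 (chr13:119690101-119690350, plus strand): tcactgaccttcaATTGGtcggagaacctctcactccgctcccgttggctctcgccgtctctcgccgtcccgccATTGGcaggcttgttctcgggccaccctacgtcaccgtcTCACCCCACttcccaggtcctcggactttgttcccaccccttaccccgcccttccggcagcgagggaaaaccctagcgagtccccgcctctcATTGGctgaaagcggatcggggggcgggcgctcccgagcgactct
Mvk (chr5:114444019-114444268, plus strand): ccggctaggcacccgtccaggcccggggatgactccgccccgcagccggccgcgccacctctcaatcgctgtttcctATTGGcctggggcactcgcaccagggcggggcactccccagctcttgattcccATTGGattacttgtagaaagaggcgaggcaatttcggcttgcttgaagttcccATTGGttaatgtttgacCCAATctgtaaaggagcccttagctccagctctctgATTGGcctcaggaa
Mvd (chr8:122443423-122443672, minus strand): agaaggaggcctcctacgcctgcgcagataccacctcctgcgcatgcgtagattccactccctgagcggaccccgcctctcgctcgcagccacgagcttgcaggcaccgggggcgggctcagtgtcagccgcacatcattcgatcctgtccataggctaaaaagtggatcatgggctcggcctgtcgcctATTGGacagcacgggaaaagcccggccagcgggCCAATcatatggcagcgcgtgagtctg
Idi1 (chr13:8885356-8885605, plus strand): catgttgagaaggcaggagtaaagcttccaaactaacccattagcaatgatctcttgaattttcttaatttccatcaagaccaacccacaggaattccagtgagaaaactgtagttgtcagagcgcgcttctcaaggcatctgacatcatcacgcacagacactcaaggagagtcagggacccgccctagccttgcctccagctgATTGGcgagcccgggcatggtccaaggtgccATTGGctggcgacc
Insig1 (chr5:28071162-28071411, plus strand): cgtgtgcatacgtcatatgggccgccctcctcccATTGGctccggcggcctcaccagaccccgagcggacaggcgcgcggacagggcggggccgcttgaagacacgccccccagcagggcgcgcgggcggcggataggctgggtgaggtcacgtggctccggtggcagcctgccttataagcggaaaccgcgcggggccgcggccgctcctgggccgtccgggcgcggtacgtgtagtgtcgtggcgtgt
Fasn (chr11:120824548-120824797, minus strand): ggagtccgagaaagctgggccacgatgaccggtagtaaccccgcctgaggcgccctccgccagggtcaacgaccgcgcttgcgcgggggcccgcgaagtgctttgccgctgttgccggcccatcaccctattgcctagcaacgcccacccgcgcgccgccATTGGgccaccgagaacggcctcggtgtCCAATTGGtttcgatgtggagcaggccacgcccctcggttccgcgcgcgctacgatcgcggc

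A promoter was at hand for 26 of the 33 members, and motifs were searched on both strands from 250 bases before to 50 bases after each start. CCAAT stood in a promoter of all 14 mevalonate and sterol genes with one, and in 8 of 12 other members (66.7%), against 41.1% of 27025 genes. Counted per promoter, because some genes have several, it was in 82.4% of 17 mevalonate and sterol promoters, 50% of 18 promoters of other members and 37.4% of all. TCACCCCAC was in the Hmgcs1 promoter and in no other member's window, against 0.614% of all genes, and the looser TCACNCCAC, which includes it, added no member. The E-box CACGTG was in 6 of 26 members (23.1%) against 8.09% of all genes. A match is a description of these letters and not a site of binding. Whether the motifs bear on the order over the profiles was not tested.

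The values, taken as FPKM, are fragments scaled by transcript length and library size, so levels can be compared between genes. Only 6 of the 12 columns are separate measurements. The third column of each group is 0.1 plus 0.99 times the mean of the first and second, with 1 row off in WT PBS 3 among 67354. WT MPTP 2 is 1.02 times WT MPTP 1 with 28 rows off, and KO MPTP 1 is 1.02 times KO PBS 2 with 46 rows off. None of the 155 table rows of the members was off. The separate profiles were thus KO MPTP 2, KO PBS 1, KO PBS 2, WT MPTP 1, WT PBS 1 and WT PBS 2. The profile called KO PBS 2 below also stands under KO MPTP 1, so its treatment and its number in the labels cannot be told. Column sums of the separate profiles were between 388861 and 425554 FPKM and read depth is unknown. Among the microglial markers, Csf1r averaged 117 FPKM, while Cx3cr1, P2ry12 and Siglech were at 0.05, 0.19 and 0.03 FPKM. Summed markers of oligodendrocytes, cells rich in cholesterol synthesis, lay between 8.45 and 9.87 FPKM with 4 of 5 under 1 FPKM, those of astrocytes between 3.24 and 3.66 FPKM with 4 of 5 under 1 FPKM, those of neurons between 0 and 0.03 FPKM with both under 1 FPKM, and those of endothelium between 82.1 and 90.4 FPKM, nearly all Flt1, with 2 of 3 under 1 FPKM. In bulk samples, fewer cells of a type and less RNA per cell cannot be told apart. Ppargc1a itself was at 0.42, 0.33 and 0.12 FPKM in KO MPTP 2, KO PBS 1 and KO PBS 2, against 2.72, 5.70 and 6.21 FPKM in WT MPTP 1, WT PBS 1 and WT PBS 2.

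**Figure D1:**
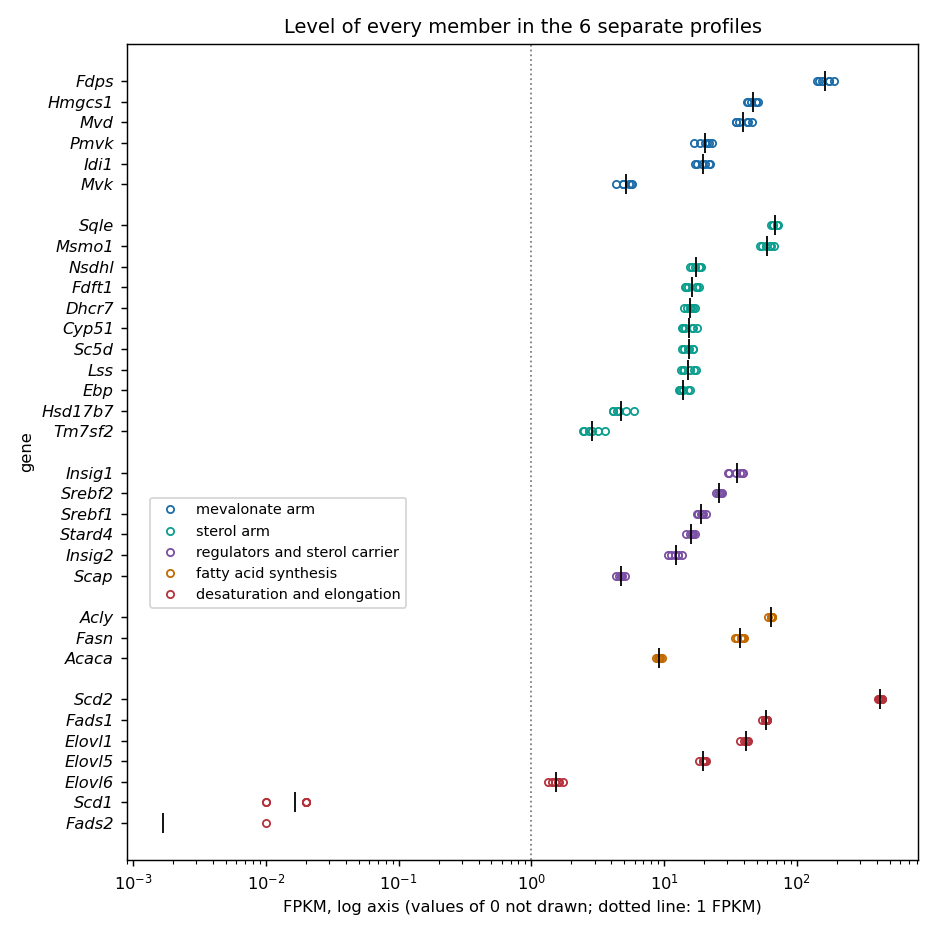
FPKM of all 33 members in the 6 separate profiles, on a log axis; each circle is a profile, the bar is their mean, and values of 0 are not drawn. Scd2 is highest, with a mean of 426 FPKM, and Scd1 and Fads2 lie far under 1 FPKM.

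Most of the pathway was expressed, and 31 of the 33 members passed the filter, which asked for 1 FPKM or more in 3 of the separate profiles. Scd2, a stearoyl-CoA desaturase that makes oleate, was the highest at 426 ± 13.2 FPKM (SD over 6 profiles, as for the other levels in this paragraph). Its paralog Scd1 was under the filter, at 0.01 or 0.02 FPKM in every profile. Fdps, the synthase of farnesyl pyrophosphate, followed at 164 ± 19.3 FPKM. Sqle, the squalene epoxidase, averaged 68.3 ± 3.23 FPKM and Acly, the ATP-citrate lyase, 64.0 ± 1.64 FPKM. The lowest members past the filter were Elovl6, an elongase, at 1.53 ± 0.14 FPKM and Tm7sf2, a sterol reductase, at 2.88 ± 0.43 FPKM. The desaturases of polyunsaturated fatty acids were far apart: Fads1 was at 58.2 ± 2.12 FPKM, while Fads2 was listed at 0 in 5 profiles and at 0.01 FPKM in WT MPTP 1. Each Fads gene, like Scd1 and Scd2, rests on 1 row, and a value of 0 in such a table can be a failed estimate.

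The mevalonate and sterol genes differed between the profiles in a common order that ran across genotype and treatment. Among the 5 profiles with 1 label each, both profiles numbered 2 (KO MPTP 2 and WT PBS 2) lay above all 3 numbered 1 (WT MPTP 1, KO PBS 1 and WT PBS 1) in 16 of 17 tested mevalonate and sterol genes, against 14.2% of all 10636 tested genes. The profile under 2 labels, called the double profile below, lay with the upper ones: in 15 of the 17, all of KO MPTP 2, KO PBS 2 and WT PBS 2 lay above the 3 others, against 4.1% of all genes, and in none was the order the other way, as it was in 3.38% of all genes. Genes with this order over 6 profiles are called split below. Srebf2 and Insig1 among 6 regulators were split too, and 0 of 8 fatty acid genes were. The order follows the numbers only where the double profile is taken as KO PBS 2, as it is wherever profiles numbered 2 are averaged below (n = 3). Taken as KO MPTP 1, and so as numbered 1, it left KO MPTP 2 and WT PBS 2 above all 4 others in 6 of the 17, against 11.9% of all genes. With each singly labelled profile left out in turn, 15 or 16 of the 17 were split. The share of all genes was then 22.5% without WT MPTP 1 and between 4.61% and 8.39% without the 4 others. Leaving out a profile can only keep or raise the count of split genes, so it is no check of the split. That the WT PBS profiles differ in these genes was known beforehand, so no test is given. The labels do not say what a number stands for.

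**Figure D2:**
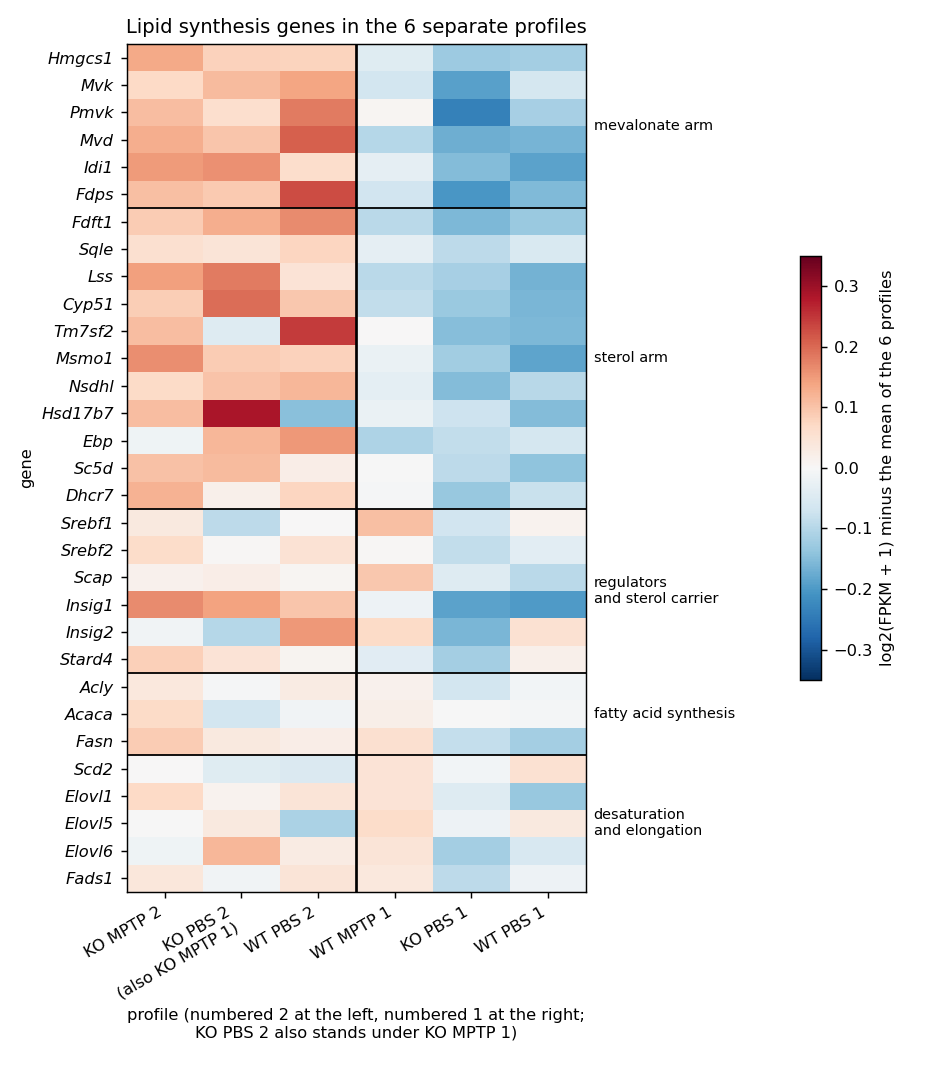
Difference of log2(FPKM + 1) from the mean of the 6 separate profiles for the 31 tested members, with KO MPTP 2, KO PBS 2 (which also stands under KO MPTP 1) and WT PBS 2 left of the thick line and the others right of it. The upper 2 blocks, the mevalonate and sterol arms, are mostly red at the left and blue at the right, and the fatty acid blocks at the bottom are not.

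In the mevalonate arm the split was seen in all 6 genes. Fdps was at 176, 174 and 192 FPKM in KO MPTP 2, KO PBS 2 and WT PBS 2, against 156, 142 and 147 FPKM in WT MPTP 1, KO PBS 1 and WT PBS 1. Mvd, which decarboxylates mevalonate pyrophosphate, was at 43.2, 42.2 and 45.7 FPKM in the same first 3 profiles, against 36.7, 34.9 and 35.2 FPKM in the other 3. Hmgcs1, which makes the substrate that precedes mevalonate, was at 51.0, 49.2 and 49.1 FPKM in KO MPTP 2, KO PBS 2 and WT PBS 2, against 45.0, 42.5 and 42.7 FPKM in WT MPTP 1, KO PBS 1 and WT PBS 1. For Hmgcs1 the gap between the nearest profiles of the 2 sets was wider than the range within either set. The isomerase gene Idi1 averaged 21.5 ± 0.83 FPKM in profiles numbered 2 and 18.0 ± 1.09 FPKM in those numbered 1 (SD, n = 3 each). For the mevalonate and phosphomevalonate kinases, Mvk averaged 5.61 ± 0.16 and 4.71 ± 0.29 FPKM and Pmvk 21.9 ± 0.98 and 18.6 ± 1.65 FPKM, again with the profiles numbered 2 first. The summed level of the 6 genes was 319, 314 and 336 FPKM in KO MPTP 2, KO PBS 2 and WT PBS 2, against 282, 258 and 265 FPKM in WT MPTP 1, KO PBS 1 and WT PBS 1.

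In the sterol arm 9 of 11 genes were split. Fdft1, the squalene synthase that opens this arm, was at 17.4, 17.9 and 18.3 FPKM in KO MPTP 2, KO PBS 2 and WT PBS 2, against 15.2, 14.5 and 14.8 FPKM in WT MPTP 1, KO PBS 1 and WT PBS 1. Msmo1, which oxidises the methyl groups of lanosterol derivatives, was at 67.1, 63.6 and 63.3 FPKM in KO MPTP 2, KO PBS 2 and WT PBS 2, against 58.9, 54.9 and 52.5 FPKM in WT MPTP 1, KO PBS 1 and WT PBS 1. For both genes the sets did not overlap, and for Msmo1 the values of the set numbered 1 were spread more widely than the gap to the other set. Sqle had the smallest log2 difference between the set means among the split sterol genes, with means of 71.2 ± 0.76 FPKM in profiles numbered 2 and 65.5 ± 1.38 FPKM in those numbered 1 (SD, n = 3 each), a log2 difference of 0.12. The lanosterol synthase Lss and the lanosterol demethylase Cyp51 each had a log2 difference of 0.25, Nsdhl 0.19, Ebp 0.17, Sc5d 0.16 and Dhcr7, the last reductase of one route to cholesterol, 0.14.

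The exceptions of the arm were Hsd17b7 and Tm7sf2, with means of 4.73 and 2.88 FPKM over the 6 profiles. Mvk of the mevalonate arm, with a mean of 5.16 FPKM, was split. Hsd17b7, a sterol ketoreductase, was at 5.14, 5.95 and 4.15 FPKM in KO MPTP 2, KO PBS 2 and WT PBS 2, against 4.61, 4.42 and 4.13 FPKM in WT MPTP 1, KO PBS 1 and WT PBS 1. In this gene both WT PBS profiles were the lowest, whatever their number. Tm7sf2 was at 3.16, 2.74 and 3.57 FPKM in KO MPTP 2, KO PBS 2 and WT PBS 2, against 2.86, 2.48 and 2.46 FPKM in WT MPTP 1, KO PBS 1 and WT PBS 1, so that KO PBS 2 lay below WT MPTP 1.

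The regulators shared no common order. Insig1, which retains SCAP in the endoplasmic reticulum and is itself a target of SREBP, was at 39.4, 38.7 and 37.6 FPKM in KO MPTP 2, KO PBS 2 and WT PBS 2, against 34.6, 30.7 and 30.4 FPKM in WT MPTP 1, KO PBS 1 and WT PBS 1. Srebf2, which encodes SREBP2, was split by less, at 27.3, 26.2 and 27.1 FPKM in KO MPTP 2, KO PBS 2 and WT PBS 2, against 26.2, 24.5 and 25.4 FPKM in WT MPTP 1, KO PBS 1 and WT PBS 1. KO PBS 2 and WT MPTP 1 were apart by 0.01 FPKM there, the last decimal of the table. Srebf1, which encodes SREBP1, was at 19.5, 17.8 and 19.1 FPKM in KO MPTP 2, KO PBS 2 and WT PBS 2, against 20.6, 18.1 and 19.2 FPKM in WT MPTP 1, KO PBS 1 and WT PBS 1, with overlapping values. Scap averaged 4.78 ± 0.04 FPKM in profiles numbered 2 and 4.67 ± 0.39 FPKM in those numbered 1, and Stard4, a carrier of sterol between membranes, 16.6 ± 0.45 and 15.5 ± 0.78 FPKM (SD, n = 3 each). Both overlapped.

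Insig2, the other retention protein, had another order, singled out after its values were seen. It was at 12.1, 10.8 and 11.3 FPKM in KO MPTP 2, KO PBS 1 and KO PBS 2, against 12.8, 12.7 and 13.6 FPKM in WT MPTP 1, WT PBS 1 and WT PBS 2. All KO profiles lay below all WT profiles, under either label of the double profile. It was the only 1 of the 31 members (3.23%) with that order, which 7.19% of all tested genes had, and with the highest row per symbol no member had it.

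The fatty acid genes had no common order. Fasn, the fatty acid synthase, was at 40.1, 38.6 and 38.3 FPKM in KO MPTP 2, KO PBS 2 and WT PBS 2, against 39.1, 35.4 and 34.5 FPKM in WT MPTP 1, KO PBS 1 and WT PBS 1. WT MPTP 1 was the second highest there, so the profiles were not split by number. Acly ranged from 61.1 to 65.6 FPKM and Acaca, the acetyl-CoA carboxylase, from 8.71 to 9.64 FPKM over the 6 profiles. Scd2 was at 426, 414 and 411 FPKM in KO MPTP 2, KO PBS 2 and WT PBS 2, against 441, 423 and 442 FPKM in WT MPTP 1, KO PBS 1 and WT PBS 1, with overlapping sets and a log2 difference of -0.06 between their means. The elongases Elovl1, Elovl5 and Elovl6 and the desaturase Fads1 had log2 differences of 0.09, -0.05, 0.09 and 0.05 between profiles numbered 2 and numbered 1, each with overlapping values.

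The mevalonate and sterol genes were also compared between pairs of profiles. Between the WT PBS profiles, WT PBS 1 minus WT PBS 2 gave a median log2 difference of -0.21 over the 17 mevalonate and sterol genes, with 0 of 17 above 0, against -0.01 over all tested genes. The members with the widest gap were Tm7sf2 at -0.40, Fdps at -0.38, Mvd at -0.37, Pmvk at -0.30 and Insig1 at -0.30. Between the KO PBS profiles, KO PBS 1 minus KO PBS 2 gave -0.27 over the 17 genes, again with 0 of 17 above 0, against -0.03 over all genes. The 8 fatty acid genes had medians of -0.05 and -0.06 in these same 2 pairs.

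**Figure D3:**
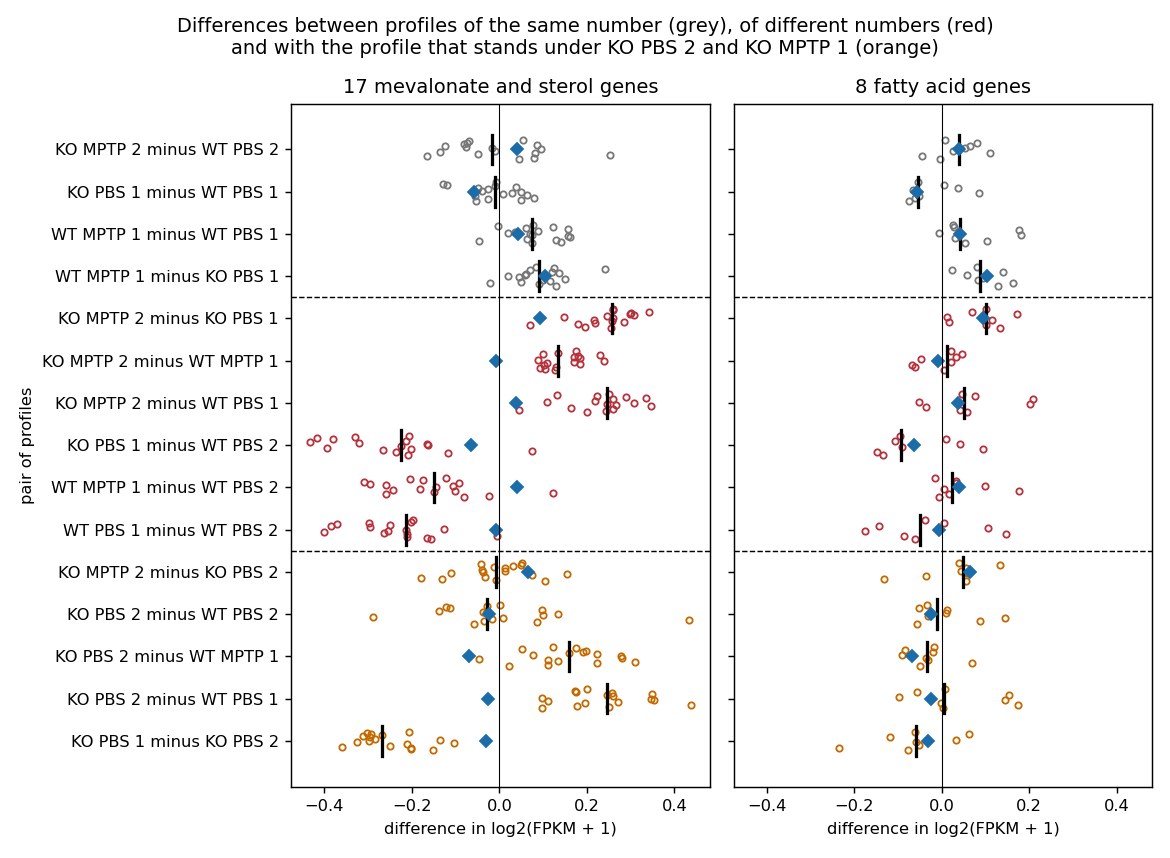
Differences in log2(FPKM + 1) between pairs of profiles for mevalonate and sterol genes (left) and fatty acid genes (right); circles are genes, black bars their median, and blue diamonds the median of all tested genes. In pairs of the same number (grey) the 17 genes scatter around 0 or the diamond, in pairs of different numbers (red) most lie to one side, and pairs with the profile under 2 labels are orange.

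Of the pairs with the same number among singly labelled profiles, 2 had medians near 0 over the 17 genes. KO MPTP 2 minus WT PBS 2 gave -0.02, with 7 above 0, where the median of all genes was 0.04 and 66.0% of them were above 0. KO PBS 1 minus WT PBS 1 gave -0.01, with 7 above 0, where the median of all genes was -0.06 and 21.0% of them were above 0. Relative to all genes, the 17 were thus lower in the first of these pairs and higher in the second. WT MPTP 1 minus WT PBS 1 gave 0.07, with 15 of 17 above 0, where the median of all genes was 0.04 and 68.0% of them were above 0. WT MPTP 1 minus KO PBS 1 gave 0.09, with 16 of 17 above 0, where the median of all genes was 0.10 and 88.5% were above 0. The double profile minus WT PBS 2 gave -0.03 with 7 above 0, minus WT PBS 1 0.25 with 17 above 0, and minus WT MPTP 1 0.16 with 16 above 0, where the medians of all genes were -0.02, -0.03 and -0.07. Which of these 3 pairs share a number depends on its label.

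The effect of MPTP in Ppargc1a-deficient microglia was fitted as KO MPTP 2 minus KO PBS 1, 1 profile in each group with different numbers. All 31 members were above 0, with a median log2 fold change of 0.26 over the 17 mevalonate and sterol genes and 0.10 over the 8 fatty acid genes, where the median of all genes was 0.09 and 86.5% of them were above 0. Insig1 had the highest value, 0.35 ± 0.13 (SE; limma, adjusted p = 0.446), followed by Pmvk at 0.34 and Fdps at 0.31. No member was called at an adjusted p of 0.05 (limma), where 0.291% of all tested genes were, and 6 of 31 (19.4%) had an unadjusted p under 0.05, all higher, against 9.24% of all genes. Those 6 were Insig1, Pmvk, Idi1, Hmgcs1, Dhcr7 and Msmo1. All 6 are split genes, as were 17 of the 31 members (54.8%). The split order by definition puts KO MPTP 2 above KO PBS 1, so this overlap is partly built in. Against the double profile, which is a KO PBS control only under its label KO PBS 2, KO MPTP 2 gave a median of -0.01 over the 17 genes, with 8 above 0. With all profiles scaled to a common median, which moved the median of all genes to -0.02, 15 of the 17 and 21 of the 31 were above 0, the median of the 17 was 0.11, Insig1 was at 0.20 and Fdps at 0.09.

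The deficiency under MPTP was fitted as KO MPTP 2 minus WT MPTP 1, also 1 profile each with different numbers. All 17 mevalonate and sterol genes were above 0, with a median of 0.13, against -0.01 over all genes and 0.01 over the 8 fatty acid genes. Lss had the highest value, 0.24 ± 0.12 (SE; limma, adjusted p = 1), followed by Mvd at 0.23 and Msmo1 at 0.19. The lowest were Insig2 at -0.08, Scap at -0.08 and Srebf1 at -0.07. No member was called (limma; 0.132% of all genes were), and 0 had an unadjusted p under 0.05. Taken as KO MPTP 1, the double profile minus WT MPTP 1 also had a median above 0, the 0.16 given above, in a pair that then shares a number. The other label gave another sign. With the double profile taken as KO PBS 2, the number in the labels was also added to the fit as a block. The median of the 17 was then -0.10, with 0 above 0.

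The deficiency without the toxin was fitted as KO PBS 1 against the mean of WT PBS 1 and WT PBS 2. The median over the 17 mevalonate and sterol genes was -0.13, with 16 below 0, where the median of all genes was -0.06 and 22.1% of them were above 0, and the 8 fatty acid genes had -0.02. With median scaling the 17 genes had a median of -0.06 with 5 above 0, and 13 of the 31 members were above 0, against 3 without it. Pmvk had -0.27 ± 0.11 and Insig2 -0.26 ± 0.09 (SE; limma, adjusted p = 0.909 for both), and Fdps had -0.24. The highest values were 0.08 for Hsd17b7, 0.02 for Elovl5 and 0.01 for Acaca. No member was called (limma; 0.226% of all genes were), and 2 of 31 (6.45%), Pmvk and Insig2, had an unadjusted p under 0.05, against 4.45% of all genes. With KO PBS 2 in place of KO PBS 1, Pmvk was at 0.03, Fdps at 0.05 and Insig2 at -0.20. With the highest row per symbol, Insig2 was at -0.07. This comparison and that of MPTP in deficient microglia share KO PBS 1, which was the lowest of the 6 profiles for Hmgcs1, Mvk, Pmvk, Mvd and Fdps in the mevalonate arm.

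The response of control microglia to MPTP was fitted as WT MPTP 1 against the mean of WT PBS 1 and WT PBS 2. The median over the 17 genes was -0.04, with 13 below 0, and over the 8 fatty acid genes 0.05, with 8 above 0. The median of all genes was 0.04, and 73.0% of them were above 0. With median scaling the 17 genes had a median of -0.09 with 2 above 0, and 8 of the 31 members were above 0, against 15 without it. The lowest values were -0.15 for Ebp, -0.12 for Mvd and -0.11 for Fdft1, and the highest 0.14 for Scap, 0.13 for Hsd17b7 and 0.10 for Fasn. No member was called (limma; 0.254% of all genes were), and 0 had an unadjusted p under 0.05. The interaction, the MPTP change in KO minus that in WT, had its highest values in Mvd at 0.42, Fdps at 0.41 and Pmvk at 0.37 (limma, adjusted p = 0.964 for Mvd) and its lowest in Elovl5 at -0.09, Scap at -0.08 and Scd2 at -0.03. No member was called for it (limma; 0.0752% of all genes were), and 0 had an unadjusted p under 0.05. All 17 mevalonate and sterol genes were above 0 with a median of 0.27, where the median of all genes was 0.05 and 67.1% of them were above 0. The interaction sets profiles of different numbers against each other. With the block on the numbers described above, its median over the 17 was -0.08, with 1 above 0.

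**Figure D4:**
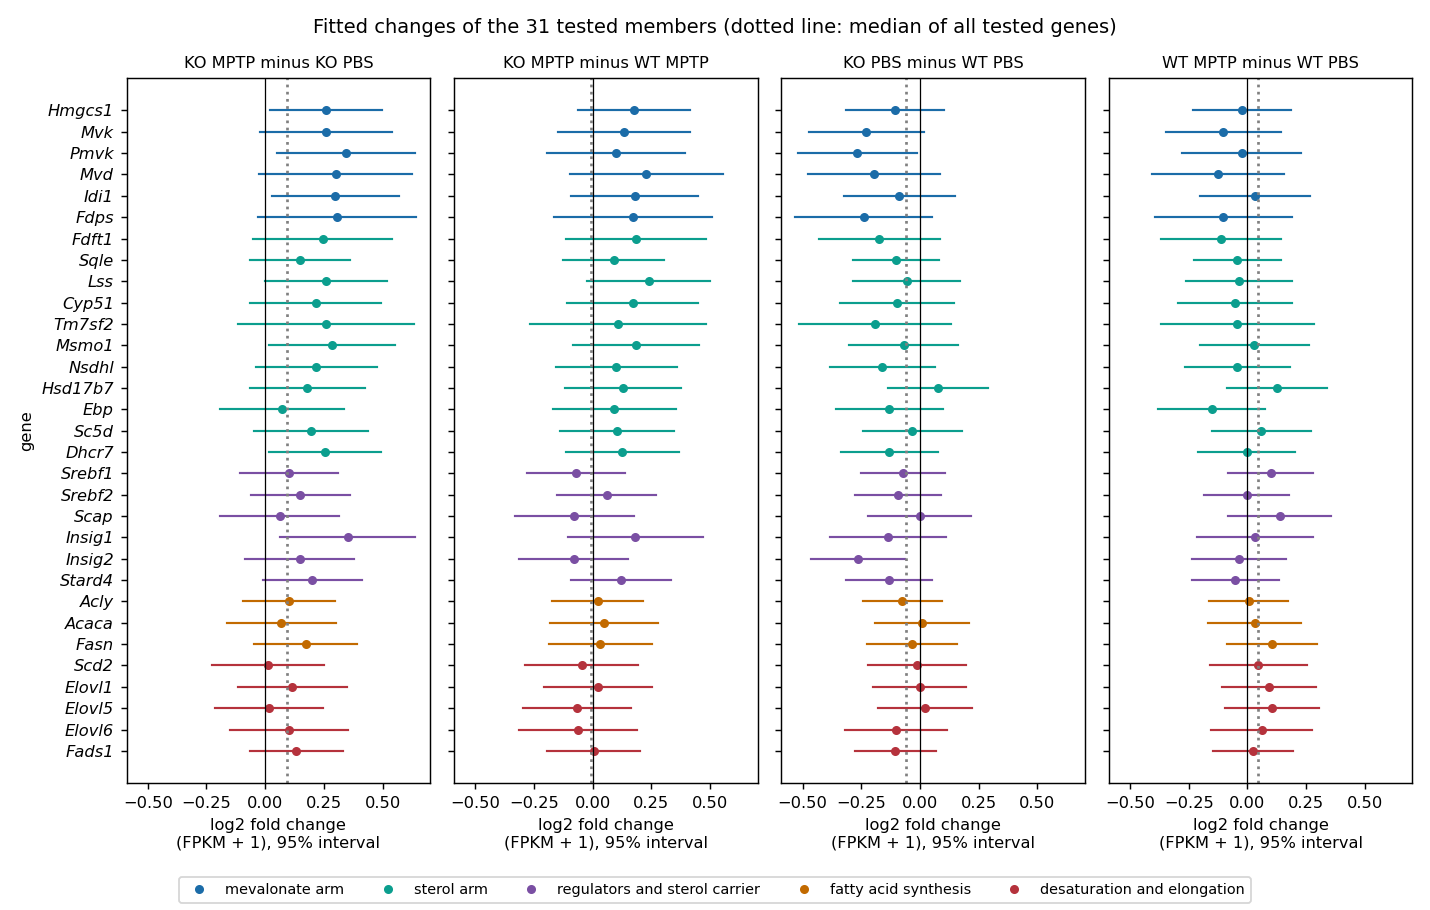
Fitted log2 fold changes of the 31 tested members with 95% intervals in the 4 comparisons; the dotted line is the median of all tested genes. No member is called in any panel, and the mevalonate and sterol genes lie right of the dotted line in both panels that contrast KO MPTP 2 with a profile numbered 1, except Ebp at 0.07 in KO MPTP minus KO PBS.

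The intervals show which sizes the design could tell. For Fdps, KO MPTP minus KO PBS had a 95% interval of -0.03 to 0.64 on the log2 scale, and for Scd2 one of -0.23 to 0.25. The spread behind such widths comes from the WT PBS pair alone, which supplies the only residual degree of freedom, and that pair itself differs in number. With 9.09 prior degrees of freedom, the widths draw more on that pair's spread over all tested genes than on the gene itself.

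Of 32 related genes of lipid synthesis and its control that are not members, 27 were in the table and 21 were tested. The 2 of highest mean, the fatty acid elongation enzymes Tecr and Hsd17b12, were at 79.7 and 76.5 FPKM. None of the 21 was called in any of the 5 comparisons (limma), and the lowest adjusted p was 0.214, for Nr1h2, which encodes the sterol receptor LXRβ, with a log2 fold change of 0.38 ± 0.10 (SE) in KO MPTP minus KO PBS. Nr1h2 was at 24.7 FPKM in KO MPTP 2, against 18.7 FPKM in KO PBS 1 and 19.9 FPKM in KO PBS 2. In WT MPTP 1, WT PBS 1 and WT PBS 2 it was at 23.5, 21.5 and 23.2 FPKM. At an unadjusted p under 0.05, 1 of the 21 (4.76%) passed in KO MPTP minus KO PBS, against 9.24% of all genes, and 3 (14.3%) in KO PBS minus WT PBS, against 4.45%. The number was 2 (9.52%) for WT MPTP minus WT PBS, against 2.69%, 0 for KO MPTP minus WT MPTP, against 3.62%, and 2 (9.52%) for the interaction, against 5.18%. Acsl3, whose high value in WT PBS 1 alone is described below, is counted in both comparisons with WT PBS. Acat2, the cytosolic thiolase that feeds the mevalonate arm, was split as its genes were, at 20.7, 21.7 and 22.3 FPKM in KO MPTP 2, KO PBS 2 and WT PBS 2, against 18.5, 16.9 and 16.9 FPKM in WT MPTP 1, KO PBS 1 and WT PBS 1. In all, 2 of the 21 (9.52%) were split that way, Acat2 and the malic enzyme gene Me1, against 4.1% of all genes. The opposite order was seen in 1 (4.76%), Mylip, which encodes a ubiquitin ligase induced by LXR, against 3.38% of all genes. Nr1h2, Acsl3, Acat2, Me1 and Mylip were named after their values were seen.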

How the data were processed

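The authors deposited 1 table of 67355 rows and 12 columns, named by group and number. The submitters' processing notes list the build mm9, Cufflinks, TopHat, Bowtie 0.12.7 and CASAVA 1.5 without saying what each did. The sources used here give no annotation. No header states the unit, and the deposited values were taken as FPKM because Cufflinks writes it. A row with text in 1 cell was left out, and rows were summed per symbol. Computed columns were found within 0.0101 FPKM for multiples and 0.00995 FPKM for means, the limits of rounding.

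Genes needed 1 FPKM in 3 of 6 separate profiles. limma 3.58.1 (R 4.3.3), with a mean-variance trend, was run across all 10636 genes on log2(FPKM + 1) of 5 profiles (KO MPTP 2, KO PBS 1, WT MPTP 1, WT PBS 1 and WT PBS 2), leaving out the profile under 2 labels, with Benjamini-Hochberg adjustment within each comparison. The fit had 1 residual and 9.09 prior degrees of freedom, and single profiles were assumed to vary like the WT PBS pair. Fold changes on this scale understate those of low genes. The fit was run on simulated data with independent noise for each gene and changes added in WT MPTP 1. That simulation held no shift shared by many genes, so it does not cover the split described above.

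The members, gene lists, markers and tests were chosen with earlier results of these data known. Named genes are the 4 highest members of each role, the 3 highest and lowest fold changes per comparison, the 5 widest WT PBS gaps and members under the filter; others were named after their values were seen. Promoters came from RefSeq on GRCm38.p6, a build other than that of the table, and were matched by symbol. Alternatives were pseudocounts, filters, scalings, row choice, other limma settings, the use of the profile under 2 labels, all 12 columns, a replicate block and left-out profiles.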

Additional observations from a re-analysis of the deposited data

How the results depend on the processing

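No member was called in any comparison with 5 or 6 separate profiles under any alternative run, and the lowest adjusted p of a named member among them was 0.24. Calls arose only where all 12 columns were taken as libraries, which treats computed columns as replicates. There 3 members were higher for WT MPTP minus WT PBS, 1 was lower for KO PBS minus WT PBS, and 1 was higher and 1 lower for KO MPTP minus WT MPTP. With the replicate block on the 12 columns, the counts were 5 higher for WT MPTP minus WT PBS, 12 higher for KO MPTP minus KO PBS, 1 higher and 4 lower for KO PBS minus WT PBS, 8 higher and 2 lower for KO MPTP minus WT MPTP, and 1 higher for the interaction. The replicate numbers are not said to mark animals or batches. The deviations of same-numbered WT PBS and KO PBS profiles had r = 0.23 across all tested genes, which are not independent replicates. With the replicate block on the 6 separate profiles, 0 members were called and 11 of 27 named values changed sign: in WT MPTP minus WT PBS, Mvd to 0.0349 and Fdft1 to 0.0327; in KO MPTP minus KO PBS, Fdps to -0.00991; in KO PBS minus WT PBS, Acaca to -0.0234; in KO MPTP minus WT MPTP, Msmo1 to -0.0520, Mvd to -0.0899 and Lss to -0.0163; and in the interaction, Scd2 to 0.0504, Pmvk to -0.0743, Fdps to -0.0759 and Mvd to -0.0286. The median of the 17 mevalonate and sterol genes under this block was -0.10 for KO MPTP minus WT MPTP, with 0 above 0, 0.00191 for KO MPTP minus KO PBS, and -0.08 for the interaction, with 1 above 0.

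To keep a residual degree of freedom, each WT PBS profile was left out with the double profile (KO PBS 2, also KO MPTP 1) added as KO PBS, and KO PBS 1 was left out with it in its place, so 2 choices change at once. The changes then ranged from -0.31 to 0.0606 for Mvd and from -0.26 to 0.0353 for Fdft1 in WT MPTP minus WT PBS, from -0.269 to 0.0276 for Pmvk, from -0.284 to 0.0997 for Fdps, from -0.0547 to -0.0213 for Acaca and from -0.0269 to 0.119 for Elovl5 in KO PBS minus WT PBS, and from -0.0713 to 0.0343 for Scd2 in the interaction. In KO PBS minus WT PBS, Acaca was also at -0.0234 with only the KO PBS 2 profile counted as KO PBS, at -0.0228 with all 12 columns and with the block on them, and at -0.0224 with the highest row per symbol, where Hsd17b7 was at -0.00231 and, in WT MPTP minus WT PBS, Ebp at 0.17. The cause was not tested. Other named values kept their sign. The count of 15 mevalonate and sterol genes split by number was 6 with the double profile counted as numbered 1. It was 13 with median scaling, 15 with quantile normalization and 13 with the highest row per symbol. With 1 profile left out it was 15 or 16, where it could only stay or rise. All these alternatives were added after the data were seen. Depth is unknown, and 1 profile per group limits the precision of every comparison but WT PBS.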

Other observations

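2 genes of lipid handling stood out in a single WT PBS profile. Acsl3, which encodes an acyl-CoA synthetase of lipid droplets and was among the related genes, was at 152.7 FPKM in WT PBS 1, against 17.2 FPKM in WT PBS 2, and no KO or WT MPTP profile was outside 12.5 to 13.2 FPKM. One of its 7 rows carried the difference, with 152 FPKM in WT PBS 1 and 15.6 FPKM in WT PBS 2. Lpin2, which encodes a phosphatidate phosphatase and was picked after its values were seen, was at 194.8 FPKM in WT PBS 2, against 24.3 FPKM in WT PBS 1, and the KO and WT MPTP profiles were at 14.3 to 15.9 FPKM. Among 10636 tested genes, these were the only 2 at least 5 times higher in 1 separate profile than in every other one. Both lie in the group that supplies the residual spread of the fit, and neither was tested further.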
